A study of Mus musculus with 3 samples.

Results

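The immunoglobulin and plasma cell genes described here are 10 genes of the antibody-secreting system among the 20937 gene symbols counted by RNAseq in the mouse incisor enamel organ (EO), the epithelium that builds enamel. They are the constant regions of antibody heavy and light chains (Igha, Ighm and Igkc), the chain that joins antibodies into polymers (Jchain), the receptor that carries those polymers across gland epithelium (Pigr), and the B lineage genes Cd79a, Cd79b, Pou2af1, Mzb1 and Tnfrsf17. All 10 were found in the counts. They were selected on results of these same libraries, so their levels and ratios are descriptions and carry no test.

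The study asked what the loss of Stim1, a sensor of calcium stores, does to gene expression in ameloblasts. RNA came from the EO cells of the whole incisor of mice aged 4 weeks, with 1 library per genotype, so each of the 3 values below comes from a single library and no spread between mice is known. Stim1 cKO was AmelX-iCre+ with Stim1 fl/fl, Stim1 HT was AmelX-iCre+ with Stim1 fl/wt, and Stim1 Ctrl was AmelX-iCre- with Stim1 fl/fl. All 3 genotypes therefore carried a floxed Stim1 allele, and only Stim1 Ctrl lacked Cre. The amelogenin promoter drives this Cre in ameloblasts, whereas leukocytes, blood vessels and connective tissue dissected with the EO keep their alleles and contribute RNA to a bulk library. The labels name the cells ameloblasts, and the enamel matrix gene Amelx, made by ameloblasts, had between 49990 counts (Stim1 cKO) and 394281 counts (Stim1 HT).

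Plasma cells are B lineage cells that have turned to antibody secretion. In salivary, lacrimal and nasal glands, resident plasma cells release polymeric IgA, in which J chain links the antibody units. Gland epithelium takes up the polymer with the polymeric immunoglobulin receptor and releases it into saliva, tears or mucus. Naive B cells instead display IgM and IgD on their surface, together with the CD79A and CD79B signalling chains, and make little J chain.

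The promoter sequences of the genes at both ends of this route are shown because Jchain belongs to the secreting cell and Pigr to the receiving epithelium. RefSeq promoter sequences on GRCm38.p6 were found for 5 of the 10 genes, namely Jchain, Pigr, Cd79a, Pou2af1 and Tnfrsf17. Each line gives the 250 bases before the gene start, read 5′ to 3′ on the strand of the gene, and capitals mark the E-box CACGTG. The Jchain promoter lies at chr5:88527898-88528147 on the minus strand, and the Pigr promoter lies at chr1:130826434-130826683 on the plus strand.
Jchain: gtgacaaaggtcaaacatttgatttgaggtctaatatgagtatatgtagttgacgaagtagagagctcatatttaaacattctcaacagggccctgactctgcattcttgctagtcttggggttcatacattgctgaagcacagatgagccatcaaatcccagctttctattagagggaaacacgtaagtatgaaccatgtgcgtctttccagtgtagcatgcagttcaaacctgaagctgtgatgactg
Pigr: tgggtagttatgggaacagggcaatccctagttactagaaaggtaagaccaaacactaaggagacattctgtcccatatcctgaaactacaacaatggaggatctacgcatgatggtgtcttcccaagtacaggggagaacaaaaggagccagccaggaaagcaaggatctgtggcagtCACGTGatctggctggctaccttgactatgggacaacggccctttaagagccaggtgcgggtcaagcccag
The E-box in the Pigr promoter begins 71 bases before the gene start. These letters, which read the same on both strands, occurred in 6.02% of 32851 mouse promoters of the same length. The octamer ATGCAAAT, searched on both strands and known from immunoglobulin promoters, occurred in 1.6% of those promoters and in none of these 5. The motifs do not overlap each other, and a match is a description of letters only.

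Where 3 values are given for a gene, they are in the order Stim1 cKO, Stim1 HT, Stim1 Ctrl. The libraries held 21496136, 20216507 and 28265960 counts. Levels are given as CPM, the usual count relative to library size, after TMM scaling between libraries, and 3 counts, taken as the limit of detection, equal between 0.117 and 0.152 CPM. All intervals are 95% intervals for counting error alone. Stim1 itself was at 72.8, 129 and 186 CPM. The Stim1 cKO library stood apart in other tissue genes as well. The photoreceptor gene Gnat1, for example, had 4294, 2 and 5 counts, and genes of lens and retina, tear and nasal glands and salivary gland are given beside the antibody genes below. Over the 18702 genes that passed the filter on low counts, Stim1 cKO differed from the mean of the controls by a median of -0.0099 on the log2 scale.

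IgA transcripts were concentrated in 1 library. Igha, which encodes the constant region of the IgA heavy chain (chr12:113254830-113260236, GRCm38), had 1765 counts in the Stim1 cKO library but 1 and 2 counts in the Stim1 HT and Stim1 Ctrl libraries, or 72.9, 0.0508 and 0.0777 CPM. Both controls were below the limit of detection. The level in Stim1 cKO was 1436 times that in Stim1 HT, with an interval of 258 to 56760, and 938 times that in Stim1 Ctrl, with an interval of 259 to 7753. The intervals are wide because they rest on the 1 and 2 counts of the controls, and in a bulk library fewer IgA cells cannot be told apart from less Igha RNA per cell.

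Jchain (chr5:88519809-88527891), whose product joins IgA or IgM units into polymers, followed Igha in the 3 libraries. It had 765, 6 and 2 counts, or 31.6, 0.305 and 0.0777 CPM. Its level in Stim1 cKO was 104 times that in Stim1 HT (interval 47.5 to 284) and 407 times that in Stim1 Ctrl (interval 112 to 3364). Stim1 HT was above the limit of detection for Jchain, but the ratio of Stim1 HT to Stim1 Ctrl, 3.92, had an interval of 0.701 to 39.7 that included 1.

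Pigr (chr1:130826684-130852249), the epithelial receptor for polymeric IgA and IgM, had the most counts of the 10 genes in Stim1 cKO, and the controls differed from each other beyond counting error. Its counts were 3812, 324 and 9, or 157, 16.4 and 0.350 CPM. Stim1 cKO was 9.57 times higher than Stim1 HT (interval 8.55 to 10.8) and 450 times higher than Stim1 Ctrl (interval 237 to 986). Stim1 HT, a library with 1 count of Igha, held 47.0 times the Pigr level of Stim1 Ctrl, with an interval of 24.5 to 104. The proportion of antibody to receptor thus differed between Stim1 cKO, with 0.463 Igha counts per Pigr count (interval 0.437 to 0.490), and Stim1 HT, with 0.00309 (interval 7.79e-05 to 0.0173). With 2 and 9 counts, the ratio of 0.222 in Stim1 Ctrl had an interval of 0.0234 to 1.07.

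**Figure D1:**
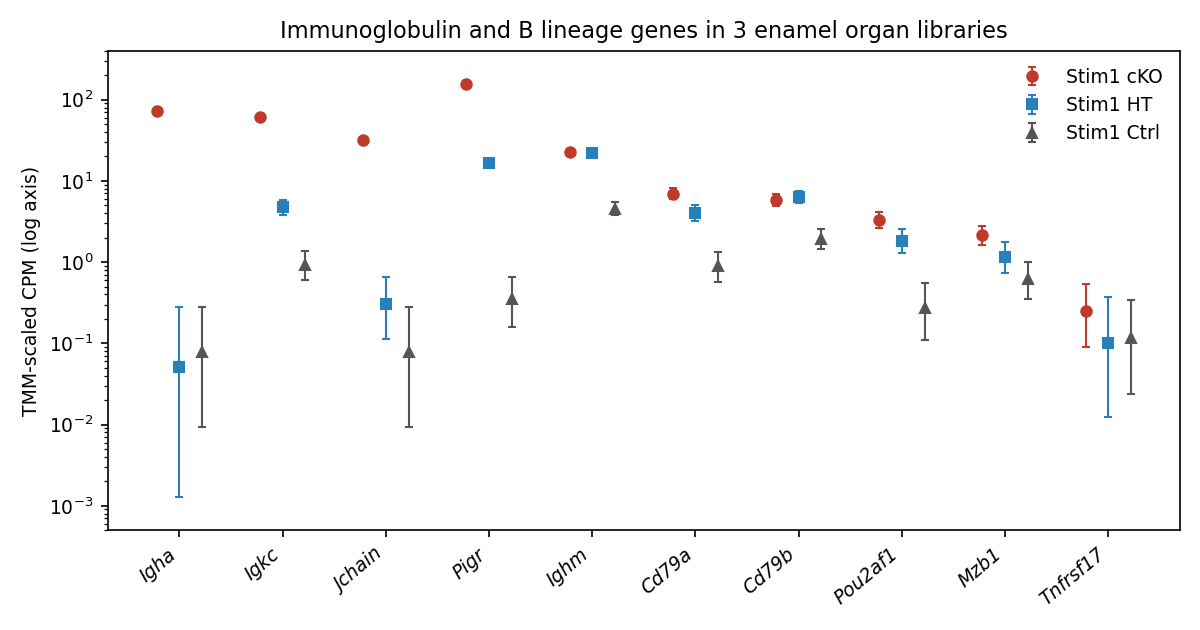
The level of each antibody and B lineage gene in TMM-scaled CPM (log axis) is plotted for the Stim1 cKO, Stim1 HT and Stim1 Ctrl libraries, with bars for the 95% counting interval of each single library. Igha and Jchain stand at 72.9 and 31.6 CPM in Stim1 cKO and below 1 CPM in both controls, Pigr stands at 157, 16.4 and 0.350 CPM, and Ighm and Cd79b lie at nearly the same level in Stim1 cKO and Stim1 HT.

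Ighm, the heavy chain of IgM (chr12:113418558-113422730), had another pattern than Igha. Ighm had 544, 432 and 117 counts, or 22.5, 21.9 and 4.55 CPM. Stim1 cKO and Stim1 HT did not differ beyond counting error, with a ratio of 1.03 and an interval of 0.902 to 1.17. Both stood above Stim1 Ctrl, by 4.94-fold for Stim1 cKO (interval 4.04 to 6.09) and 4.82-fold for Stim1 HT (interval 3.92 to 5.97). Ighd, the IgD heavy chain that naive B cells carry beside IgM, is not one of the 10 genes. It had 201, 46 and 9 counts, or 8.30, 2.33 and 0.350 CPM, and was 3.56 times higher in Stim1 cKO than in Stim1 HT (interval 2.57 to 5.01).

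The make-up of the heavy chain counts therefore differed between Stim1 cKO and both controls. Of the 2510 counts of Igha, Ighm and Ighd in Stim1 cKO, 70.3% were Igha, with a Wilson interval of 68.5% to 72.1%. The share was 0.209% of 479 counts in Stim1 HT (interval 0.0369% to 1.17%) and 1.56% of 128 counts in Stim1 Ctrl (interval 0.430% to 5.52%). Ighm made up 90.2% and 91.4% in these controls and 21.7% in Stim1 cKO. The Ighd share was 8.01%, 9.60% and 7.03%, with overlapping intervals. These shares cover the 3 heavy chain genes in the counts. The table lists only genes with at least 1 count in every library, and Ighg1, Ighg2b, Ighg2c, Ighg3 and Ighe were not analysed here.

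**Figure D2:**
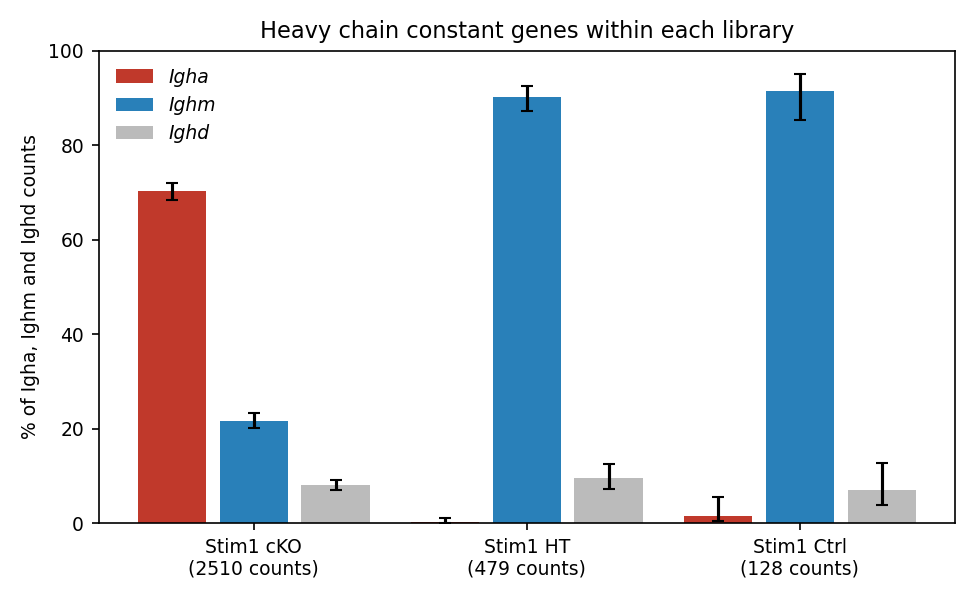
Bars give the percentage of the summed Igha, Ighm and Ighd counts that each gene took in each library, with 95% Wilson intervals and the total below each library. Igha takes 70.3% in Stim1 cKO, whereas Ighm takes 90.2% in Stim1 HT and 91.4% in Stim1 Ctrl.

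Igkc (chr6:70726435-70726966), the constant region of the kappa light chain, pairs with every heavy chain class and lay between the patterns of Igha and Ighm. Igkc had 1475, 93 and 24 counts, or 60.9, 4.72 and 0.932 CPM. Stim1 cKO was 12.9 times higher than Stim1 HT (interval 10.5 to 16.1) and 65.3 times higher than Stim1 Ctrl (interval 43.7 to 102), and the ratio between the controls was 5.06 (interval 3.20 to 8.29). Per count of Ighm there were 2.71 counts of Igkc in Stim1 cKO (interval 2.46 to 3.00). The controls did not differ in this ratio beyond counting error, at 0.215 in Stim1 HT (interval 0.170 to 0.270) and 0.205 in Stim1 Ctrl (interval 0.126 to 0.320). In Stim1 cKO there were 1.20 Igha counts per Igkc count and 0.433 Jchain counts per Igha count.

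Of the 2 light chain constant genes in the table, Igkc had more counts than Iglc2 in each library, and Iglc1 and Iglc3 were not analysed here. Igkc took 95.2% of the 1550 counts of Igkc and the lambda gene Iglc2 in Stim1 cKO (interval 94.0% to 96.1%), 80.2% of 116 in Stim1 HT (interval 72.0% to 86.4%) and 96.0% of 25 in Stim1 Ctrl (interval 80.5% to 99.3%). Iglc2 itself had 75, 23 and 1 counts, and its exons overlap those of the joining segment Iglj2. Of the variable segments, 5 were listed, led by Iglv1 with 38, 10 and 3 counts, Ighv1-18 with 9, 1 and 1 and Ighv5-4 with 7, 1 and 1. The highest level was in Stim1 cKO for 4 of these 5.

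The B cell receptor genes Cd79a and Cd79b and the coactivator gene Pou2af1 were present in all 3 libraries. They differed less between Stim1 cKO and Stim1 HT than the IgA genes did. Cd79a (chr7:24897381-24902197), a signalling chain of the receptor, had 169, 79 and 23 counts, or 6.98, 4.01 and 0.894 CPM. Its level in Stim1 cKO was 1.74 times that in Stim1 HT (interval 1.33 to 2.30) and 7.81 times that in Stim1 Ctrl (interval 5.04 to 12.7). Cd79b (chr11:106311341-106314762), its partner chain, had 142, 125 and 50 counts, or 5.86, 6.34 and 1.94 CPM, and was the only one of the 10 genes with its highest level in Stim1 HT. Its ratio of Stim1 cKO to Stim1 HT, 0.924, had an interval of 0.722 to 1.19, whereas Stim1 HT was 3.27 times higher than Stim1 Ctrl (interval 2.34 to 4.63).

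Pou2af1 (chr9:51213708-51240080), the B cell coactivator that works with octamer-binding factors, had 80, 36 and 7 counts, or 3.30, 1.83 and 0.272 CPM. It was 1.81 times higher in Stim1 cKO than in Stim1 HT (interval 1.21 to 2.76) and 6.72 times higher in Stim1 HT than in Stim1 Ctrl (interval 2.95 to 17.9). Pou2af1 thus shared the order of Cd79a, with each step outside counting error.

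The remaining 2 genes belong to antibody-secreting cells. Mzb1, a chaperone of the endoplasmic reticulum that helps antibody assembly, had 52, 23 and 16 counts, or 2.15, 1.17 and 0.622 CPM. Its ratio of Stim1 cKO to Stim1 HT was 1.84 (interval 1.11 to 3.15), and that of Stim1 HT to Stim1 Ctrl was 1.88, with an interval of 0.950 to 3.80 that included 1. Its exons overlap those of Spata24 on the same strand, so part of these counts is uncertain. Tnfrsf17 (chr16:11313812-11320074), the plasma cell survival receptor BCMA, had 6, 2 and 3 counts, and none of its ratios differed from 1 beyond counting error. Relative to the kappa chain, Mzb1 was lowest in Stim1 cKO, with 0.0353 Mzb1 counts per Igkc count against 0.247 in Stim1 HT and 0.667 in Stim1 Ctrl.

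Levels of different genes were compared as CPM per kb of exon, with all annotated exons of a gene merged. The order depends on these lengths, which were 2668 bases for Igha and 532 for Igkc. Before division by length, Igha at 72.9 CPM was above Igkc at 60.9 in Stim1 cKO. In Stim1 cKO the order was Igkc at 114.5 CPM per kb, Pigr at 39.1, Igha at 27.3, Jchain at 12.6 and Ighm at 11.9, followed by Cd79a at 4.79, Cd79b at 4.10, Mzb1 at 1.77, Pou2af1 at 1.30 and Tnfrsf17 at 0.304. The counting intervals of Jchain and Ighm overlapped, as did those of Cd79a and Cd79b and of Mzb1 and Pou2af1. In Stim1 HT Ighm led at 11.6 CPM per kb, before Igkc at 8.87, Cd79b at 4.43 and Pigr at 4.09, with overlapping intervals for Ighm and Igkc and for Cd79b and Pigr. Igha, the third in Stim1 cKO, was the lowest in Stim1 HT at 0.0190 CPM per kb, with an interval that overlapped those of Jchain and Tnfrsf17. In Stim1 Ctrl the order began with Ighm at 2.41 CPM per kb, Igkc at 1.75 and Cd79b at 1.36, and the interval of each overlapped that of the next.

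Stim1 cKO had the highest level for 9 of the 10 genes, a share that was not computed over all genes tested. The level there was more than 2-fold above both controls for 5 of 10 (Igha, Igkc, Jchain, Pigr and Tnfrsf17), and for 19.1% of the 18702 genes tested. Since the genes were selected on this contrast, nothing is read from the 9 of 10 or the 5 of 10, and Tnfrsf17 enters both with 6 counts. Of the 10 genes, 9 passed the filter on low counts and Tnfrsf17 did not. Over the 10 genes, Stim1 cKO differed from the mean of the controls by a median of 1.58 on the log2 scale, with 1.08 against Stim1 HT alone and 3.28 against Stim1 Ctrl alone.

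The controls differed from each other beyond counting error in 6 of the 10 genes, and not in Igha, Jchain, Mzb1 and Tnfrsf17. The share of all genes tested that differed in this way was not computed, so nothing is read from the 6 of 10. Stim1 HT was more than 2-fold above Stim1 Ctrl for 7 of 10, against 9.82% of all genes tested, and the median difference on the log2 scale, Stim1 HT minus Stim1 Ctrl, was 2.07 over the 10 genes against 0.0046 over all genes tested. The levels were in the order Stim1 cKO, Stim1 HT, Stim1 Ctrl for 7 of 10 (Ighm, Igkc, Jchain, Pigr, Mzb1, Cd79a and Pou2af1), against 26.3% of all genes tested. In 4 of these 7 (Igkc, Pigr, Cd79a and Pou2af1) both steps lay outside counting error, a share that was not computed over all genes tested. The genes were selected partly on a high level in Stim1 cKO, so nothing is read from this order, and genotype and dissection cannot be told apart with 1 library each.

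**Figure D3:**
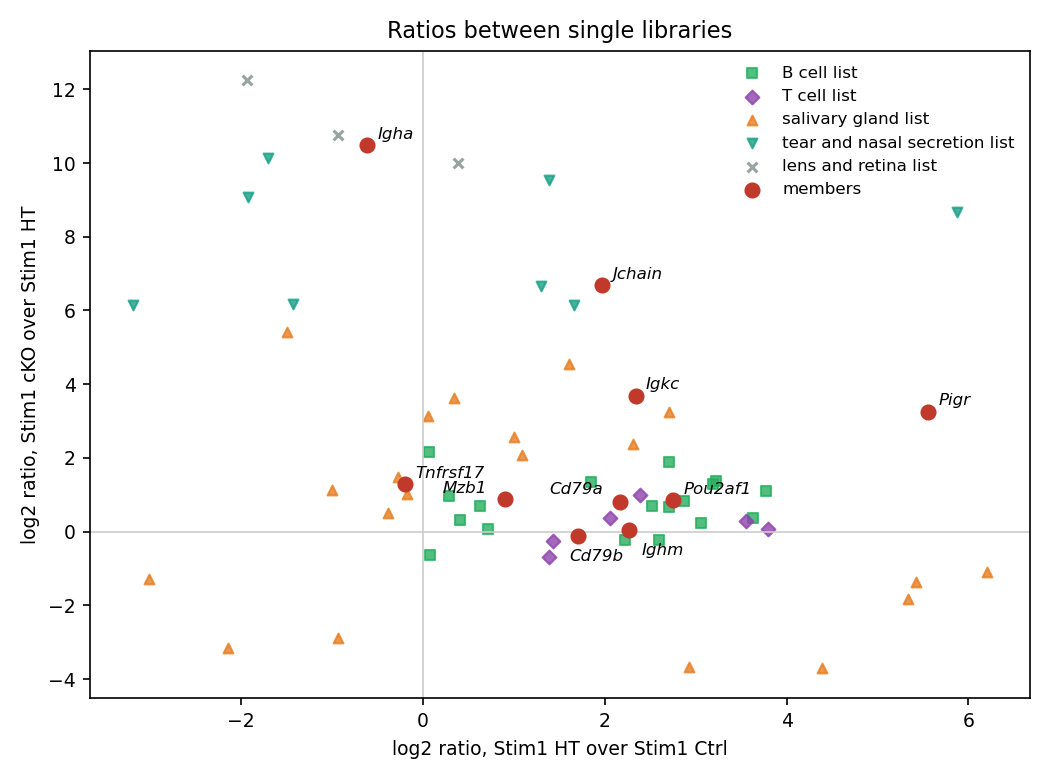
Each point is a gene, placed by its log2 ratios, with Stim1 HT over Stim1 Ctrl on the horizontal axis and Stim1 cKO over Stim1 HT on the vertical axis, for the 10 antibody and B lineage genes (named, circles) and for lists of B cell, T cell, salivary gland, tear and nasal secretion, and lens and retina genes. Both axes use the Stim1 HT library. Ighm, Cd79a, Cd79b and Pou2af1 lie to the right and near 0 on the vertical axis, among the B and T cell genes, whereas Igha lies above 10 on the vertical axis beside the lens and retina genes.

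Genes of other lists were tested between Stim1 cKO and the grouped controls with edgeR's quasi-likelihood test and with DESeq2, where a call needed an adjusted p under 0.01 and a difference of over 2-fold. edgeR called 14 genes higher, 0.0749% of those tested, and 0 lower, although 5961 had an unadjusted p under 0.05. DESeq2 called 1107 higher, 5.92% of those tested, and 880 lower. Either test takes its residual from the 2 controls, whose genotypes are not the same.

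Among 18 listed B cell genes, edgeR called 0, with 2 higher at an unadjusted p under 0.05, and DESeq2 called 1, Ebf1. Ebf1, a transcription factor needed for B cell commitment that other cell types also express, had 10068, 1835 and 2291 counts and a DESeq2 adjusted p of 6.40e-11 (edgeR 0.0206). Its level in the controls was 1.05-fold apart. Among the other genes of this list the gap between the controls varied. Ms4a1, which encodes CD20, had 121, 76 and 8 counts, whereas Cd37 had 231, 150 and 148. H2-Ob, a class II chaperone of B cells, had 183, 40 and 8 counts, and Vpreb3 had 159, 50 and 7. The order Stim1 cKO, Stim1 HT, Stim1 Ctrl held for 15 of the 18, and 12 of the 18 were more than 2-fold higher in Stim1 HT than in Stim1 Ctrl. Of the early B cell genes, which mark precursors in bone marrow, 5 were listed and neither test called any of the 3 tested; Il7r had 60, 33 and 17 counts, Igll1 11, 10 and 2, Dntt 8, 8 and 1, Vpreb1 5, 19 and 16 and Rag1 2, 7 and 13, so that only Vpreb1 and Rag1 of these 5 were lowest in Stim1 cKO.

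As a list, the 13 plasma cell genes did not follow the IgA genes, with a summed level of 476, 614 and 645 CPM. Cells other than plasma cells also express Sdc1 and Xbp1, the genes with the highest levels, so this sum does not measure plasma cells. Both tests called 0 of 13, and edgeR had 1 higher and 2 lower at an unadjusted p under 0.05. Sdc1, the plasma cell surface marker syndecan-1 that epithelia also carry, had 3520, 4022 and 5737 counts, and Xbp1, a regulator of secretory capacity in plasma and gland cells, had 2511, 3427 and 4495. Slamf7, a surface receptor of plasma cells, had 41, 3 and 2 counts. Its ratio of Stim1 cKO to Stim1 HT was 11.1 (interval 3.55 to 56.1). It was the 1 gene higher at an unadjusted p under 0.05, but passed the filter on low counts through Stim1 cKO alone. Slamf7 and Derl3, with 91, 23 and 48 counts, were the 2 genes of the list more than 2-fold above both controls. Prdm1, the transcription factor that directs plasma cell formation, had 425, 191 and 281 counts.

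Signals that bring IgA cells to mucosa and keep them there were listed with 12 genes, of which 11 were tested. edgeR called 0 of 11, with 3 higher and 1 lower at an unadjusted p under 0.05, and DESeq2 called 1. That gene was Ccl28, the epithelial chemokine that draws IgA plasma cells into salivary and other glands, with 377, 68 and 82 counts, or 15.6, 3.45 and 3.19 CPM, and a DESeq2 adjusted p of 0.00490 (edgeR 0.0403). Its controls differed by less than counting error, whereas those of Pigr differed 47.0-fold. Of the 3 genes higher, Ccr9 with 28, 8 and 5 counts and Il6 with 18, 3 and 2 passed the filter through Stim1 cKO alone. Ccr10, the receptor for Ccl28 on IgA cells, had 6, 9 and 1 counts, and Madcam1, the vessel ligand for gut homing, had 2, 30 and 7.

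Of 6 other immunoglobulin receptors, edgeR called 0, with 1 higher and 2 lower at an unadjusted p under 0.05. DESeq2 called Fcgrt lower; this transporter of IgG had 1154, 2564 and 3162 counts and a DESeq2 adjusted p of 0.000239 (edgeR 0.0431). Fcamr, a receptor for IgA and IgM, was the gene of this list most like Pigr in order, with 119, 18 and 5 counts.

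Glandular tissue genes were set beside the IgA genes. Of 20 listed salivary gland genes edgeR called 0, with 10 higher and 3 lower at an unadjusted p under 0.05. DESeq2 called 7 higher, namely Aqp5, Amy1, Car6, Smgc, Klk1, Azgp1 and Ehf, and 1 lower, Lpo. Of all genes tested, DESeq2 called 5.92% higher. Azgp1, with 158, 3 and 11 counts, and Prol1, with 43, 4 and 5, passed the filter through Stim1 cKO alone. This list too was chosen with earlier results known, so nothing is read from its counts of genes. Car6, the secreted carbonic anhydrase of saliva, had 5613, 194 and 83 counts (DESeq2 adjusted p = 1.01e-16, edgeR 0.0208). Klk1, a kallikrein of submandibular ducts, had 2978, 195 and 200 counts (DESeq2 adjusted p = 3.40e-20, edgeR 0.0115), and Aqp5, the acinar water channel, had 1872, 362 and 222 (DESeq2 adjusted p = 4.30e-05, edgeR 0.0370).

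The libraries differed in which salivary genes were highest. Stim1 cKO had the highest level for 12 of 20, Stim1 HT for 5 and Stim1 Ctrl for 3, and the summed level was 951, 939 and 219 CPM. The share of all genes tested that were highest in each library was not computed. Dcpp1, a secreted gland protein with near-identical copies, had 2214, 6419 and 208 counts, and Bpifa2, the parotid secretory protein, had 227, 2351 and 403. Lpo, the salivary peroxidase, had 22, 159 and 913 counts, and Pip, a prolactin-inducible secreted protein, had 61, 122 and 1284. The sum in Stim1 HT rested on Dcpp1, Dcpp2 and Dcpp3: over the other 17 genes, a choice made after the values were seen, it was 702, 250 and 204 CPM.

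Tear and nasal secretion genes were highest in Stim1 cKO for all 8 listed. Each was more than 2-fold above both controls, edgeR called 1, Mup5, and DESeq2 called 7, all but Obp1a. Of all genes tested, 19.1% were more than 2-fold above both controls, and DESeq2 called 5.92% higher. The list was chosen with earlier results of these data known, so nothing is read from its counts of genes. Obp2a, an odorant-binding protein, had 22727, 45 and 1 counts, and Mup4, of the major urinary protein family, had 16609, 12 and 51. Obp1a had 23482, 268 and 3183 counts, so that Stim1 Ctrl was the higher control. The summed level was 3551, 23.6 and 134 CPM. Reads of the Mup and Obp families could have been split among near-identical copies. The lens and retina genes Gnat1 and Prph2 were called higher by both tests and had 2 to 5 counts in each control. Like Mup5, with 1821, 2 and 1 counts, they passed the filter on low counts through Stim1 cKO alone. Nothing is read from these calls either.

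**Figure D4:**
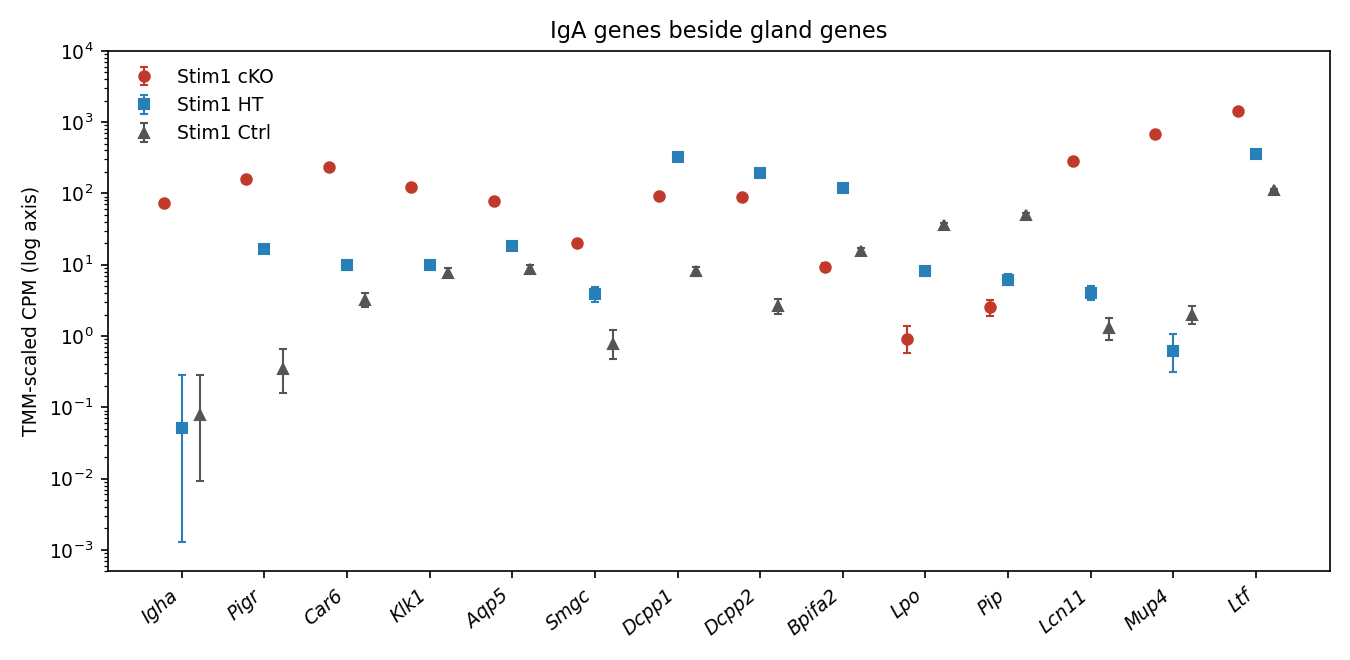
Levels in TMM-scaled CPM (log axis) of Igha, Pigr, 9 salivary genes, the tear and nasal genes Lcn11 and Mup4, and Ltf are plotted for the 3 libraries, with 95% counting intervals. Igha, Pigr, Lcn11, Mup4 and Ltf are highest in Stim1 cKO, whereas Dcpp1, Dcpp2 and Bpifa2 are highest in Stim1 HT and Lpo and Pip in Stim1 Ctrl.

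Ratios within a library relate the IgA genes to each gland gene without any scaling between libraries. Per count of Aqp5 there were 0.943 counts of Igha in Stim1 cKO (interval 0.883 to 1.01), 0.00276 in Stim1 HT (interval 6.97e-05 to 0.0155) and 0.00901 in Stim1 Ctrl (interval 0.00108 to 0.0329). Per 1000 counts of Dcpp1 there were 797, 0.156 and 9.62 counts of Igha. Neither salivary gene thus kept a fixed proportion to Igha. Pigr per Aqp5 was 2.04 (interval 1.93 to 2.15), 0.895 (interval 0.768 to 1.04) and 0.0405 (interval 0.0183 to 0.0784), so Pigr was in a different proportion to Aqp5 in each library.

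For the tear and nasal genes Mup4 and Lcn11 the proportion was also computed. Igha per count of Mup4 was 0.106 in Stim1 cKO (interval 0.101 to 0.112), 0.0833 in Stim1 HT (interval 0.00195 to 0.563) and 0.0392 in Stim1 Ctrl (interval 0.00462 to 0.149), and the 3 intervals overlapped. With 1 and 2 counts of Igha in the controls, that overlap is weak information. For Lcn11, a lipocalin of the same list, the proportions were 0.255, 0.0125 and 0.0606, and the intervals of Stim1 cKO and both controls did not overlap. Which tissue the Igha counts came from was not tested.

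By the distance between pairs of log2 ratios (Stim1 cKO to Stim1 HT and Stim1 cKO to Stim1 Ctrl), taken over the 14977 genes that averaged 50 counts or more, the 5 genes nearest to Igha were Pdc, Gnat1, Prph2, Mup5 and Mup4. Pdc, a photoreceptor gene, was the nearest at a distance of 0.0716, with 1828, 1 and 2 counts, and Mup4 was the fifth at 1.48. Among the genes nearest to Jchain were Cabs1 at 0.352, Neurod6, Rtbdn and Scgb1b27. The nearest to Pigr was Muc5ac, a gel-forming mucin of mucous epithelium, at 0.0567 with 1242, 109 and 3 counts, followed by Bpifb6, Iqca, BC049352 and Fmo6. A pattern over 3 libraries has only 2 free ratios, and 7 of the genes named here had 1 count in a control.

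Other leukocytes did not share one direction. The 6 listed T cell genes, none called by either test and none with an unadjusted edgeR p under 0.05, were all more than 2-fold higher in Stim1 HT than in Stim1 Ctrl, with a summed level of 12.4, 13.1 and 3.81 CPM. All 7 macrophage genes were lowest in Stim1 cKO, with summed levels of 140, 304 and 339 CPM; edgeR called 0, with 6 lower at an unadjusted p under 0.05, and DESeq2 called 3 lower. Of 7 neutrophil genes, 6 were lowest in Stim1 cKO, edgeR called 0, with 1 higher and 5 lower at an unadjusted p under 0.05, and DESeq2 called 5 lower. The exception was Ltf, lactoferrin, which gland epithelium also secretes, with 34882, 7054 and 2872 counts. For 4 general leukocyte genes both tests called 0, with 1 lower at an unadjusted edgeR p under 0.05; Ptprc, the pan-leukocyte marker CD45, had 465, 280 and 243 counts.

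Of 10 enamel organ genes, edgeR called 0, with 2 higher and 3 lower at an unadjusted p under 0.05, and DESeq2 called Odam and Krt14 higher and Amelx, Ambn and Enam lower. Their summed level was 7023, 33050 and 24740 CPM. The library with the most IgA thus had the least enamel matrix RNA, and the part of cell composition in either was not tested. The 10 antibody and B lineage genes together took 0.041%, 0.00554% and 0.000895% of all counts.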

How the data were processed

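The authors aligned trimmed paired-end reads with STAR. The counts the authors deposited are raw and per gene symbol, for 3 EO libraries, 1 per genotype. Aligner version, genome build, annotation, counter and strand setting are not given in the sources used here. The paper names a directional NEBNext kit and the labels a SMARTER kit. Genes at 0 in any library are not in the table.

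Counts were scaled with TMM factors (1.13, 0.975 and 0.911) and tested with edgeR 4.0.16 in R 4.3.3 over 18702 genes kept by filterByExpr, with Stim1 HT and Stim1 Ctrl grouped, as the study did. The residual had 1 degree of freedom. DESeq2 1.42.0 was an alternative, with RLE scaling, library size, 1 CPM added, no filter and an adjusted p under 0.05. Adjustment was by Benjamini-Hochberg over all genes tested. Both tests were tried on simulated counts. Shares have Wilson intervals and ratios exact binomial intervals (95%), computed in Python 3.11.15 with scipy 1.17.1. Exon lengths and positions came from GENCODE M21, in which 20719 symbols were found.

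The members and lists were chosen with earlier results of these data known. Named were all members, listed constant genes, Stim1, the 5 nearest patterns, and from each list the 3 genes with the highest level and the 3 farthest in Stim1 cKO, as a ratio, from the nearer control, if they averaged 50 counts or more. Some genes that this rule selects are not reported here. Aqp5, Amy1, Smgc, Ehf, Lpo, Pip, Bpifa2, Lcn11, Slamf7, Ms4a1, Rag1, Dntt, Dcpp3, Ccr10, Madcam1, Fcamr, Spata24 and Iglj2, and the pairs for ratios, were chosen after their values were seen.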

Additional observations from a re-analysis of the deposited data

How the results depend on the processing

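Each genotype had 1 library, so no result has a replicate check, and leaving out either control leaves 1 library against 1, for which no test could be fitted. With 1 library per genotype, no paired analysis was possible. The number of genes called depended on the method: 14 in edgeR became 1987 with DESeq2, 50 with RLE size factors, 907 with no filter and 1811 at an adjusted p under 0.05, and the 0 salivary gland genes called became 8, 1, 4 and 6. The cause was not tested. The number of members more than 2-fold above both controls, 5, was 4 with 1 CPM added and 8 with library size only, which moved the median log2 ratio of all genes to 0.248, and 5 to 10 without 1 control, with 10 when Stim1 HT was left out. The IgA share of heavy chain counts moved in Stim1 cKO from 70.3% to 62.7% per exon length and 89.8% with Ighm left out of the total. With Ighm left out it was 2.13% in Stim1 HT and 18.2% in Stim1 Ctrl, which then had 47 and 11 counts. Over 6 alternatives, the 60 log2 ratios of members to the mean of the controls stayed within the counting interval in 41 cases, and 1 turned negative, Cd79b at -0.11 without Stim1 Ctrl. Igha was at 6.12 with 1 CPM added, against 10.15. The summed salivary level in Stim1 cKO was 1.01 times that in Stim1 HT and 2.81 times without the Dcpp genes, an alternative chosen after seeing the data.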
